A study of Mus musculus with 6 samples.

Results

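The Mrpl genes encode proteins of the large subunit of the mitochondrial ribosome. They were taken as every gene whose symbol is Mrpl followed by a number, which gave 43 of the 18001 genes measured. The RNA came from NIH/3T3, an immortalized line of mouse embryonic fibroblasts, transfected for 48 h either with pooled siRNAs to silence Aldoa (siAldoa, 3 libraries) or with non-targeting ones (siCtrl, 3 libraries). Aldoa encodes the glycolytic enzyme aldolase A, and all 6 libraries were polyadenylated RNA from cells of the same line in the same medium, so both groups carried siRNA. Each library held between 3692341 and 3771129 reads. Replicate 3 stood apart in both groups: its counts differed from those of replicates 1 and 2 by a chi-square per degree of freedom of 1.97 to 3.03, while replicates 1 and 2 differed by 1.12 (siCtrl) and 1.11 (siAldoa). Spike-in RNA was added to replicate 1 in the lysis buffer and to replicates 2 and 3 after extraction, and it was not analysed here. Aldoa itself was 534 ± 11.97 CPM (reads scaled to a common library size) in siCtrl and 68.0 ± 4.68 CPM in siAldoa (SD, n = 3 each), a log2 fold change of -2.96.

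The mitochondrial ribosome translates the few mRNAs of the mitochondrial genome, which code for core subunits of the respiratory chain and of the ATP synthase. All of its proteins are made from nuclear genes and imported. Mrpl symbols are named for the large subunit, where peptide bonds form, and Mrps symbols for the small subunit, where the mRNA is decoded. The sets here follow the symbols, which do not give the true place of every protein, least of all in the Mrps set. Some of these proteins descend from the bacterial ribosome and others exist only in mitochondria.

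The labelled cell type was checked on marker genes. All 8 fibroblast markers examined were measured, with a summed level of 13075 to 13612 CPM in siCtrl and 10803 to 11474 CPM in siAldoa. The sum was set by Col1a1, Col1a2 and Vim, and the list did not move one way: 5 of the 8 were lower in every siAldoa library than in every siCtrl library and 3 were higher, Pdgfrb (19.6 to 23.8 against 46.4 to 53.7 CPM), Fn1 and Thy1. Of 10 markers of leukocytes, epithelium, endothelium, muscle and fat, 7 were analysed here, and their summed level was 18.8 to 20.8 CPM in siCtrl and 8.38 to 13.9 CPM in siAldoa; only Krt8 was at 0 in any library, in 2 of siAldoa. The part of these shifts in the results on Mrpl genes was not tested. In a bulk sample fewer cells of a type and less RNA per cell cannot be told apart, and CPM values are shares of each library.

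Silencing of Aldoa was accompanied by lower expression of 8 Mrpl genes, while most of the others had small negative values that did not pass the test. Mrpl12 and Mrpl55 had the largest drops, to 60.3% and 59.6% of control, followed by Mrpl42, Mrpl50, Mrpl13, Mrpl28, Mrpl20 and Mrpl15 (limma on log2(CPM + 1), adjusted p under 0.05 over all genes). The 8 genes are 18.6% of the 43, where 10.0% of all genes were called lower. None of the 43 was called higher, against 10.4% of all genes; edgeR and DESeq2 also called 0 higher, and 0 had an unadjusted p under 0.05 with a positive fold change. The log2 fold change was below 0 in 34 of the 43 (79.1%, against 50.4% of all genes), and its median was -0.13, beside -0.0023 over all genes and 0.0054 over the 8839 genes with a mean CPM in the range of the Mrpl genes, of which 11.3% were called lower and 14.0% higher. Every siAldoa library was below every siCtrl library in 13 of the Mrpl genes (30.2%, against 17.1% of all genes), and the reverse order was seen in 1 (against 16.7%). The count of 8 rested on all 3 replicates. It was 1 (Mrpl13) without replicate 1, 1 (Mrpl12) without replicate 2 and 0 without replicate 3. In these fits 8, 9 and 12 Mrpl genes were lower at an unadjusted p under 0.05 in limma. The share of all genes at that threshold was not computed, so these counts have no background. Without 1 library the count was 4 (siAldoa 2), 5 (siCtrl 1 or siCtrl 3), 6 (siCtrl 2) or 7 (siAldoa 1 or siAldoa 3). In those fits 1318 to 1371 of the 18001 genes were called lower. Without replicate 1, 2 or 3 the shares of all genes called were 3.84%, 3.54% and 2.89% lower and 4.11%, 3.79% and 2.74% higher.

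Other rules called fewer of the 8 genes or the same number. DESeq2 called 5 Mrpl genes lower. Of the 11717 genes to which it gave an adjusted p, 9.53% were called lower and 9.10% higher. Limma without a mean-variance trend called 3 (3.42% of all 18001 genes lower and 4.58% higher). Limma with replicates 1 and 2 averaged called 6 (8.39% and 8.77%), and with the replicate number as a block 7 (8.66% and 8.95%). Mrpl12, Mrpl55 and Mrpl42 were among the calls in each of these, and no Mrpl gene was called higher.

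**Figure D1:**
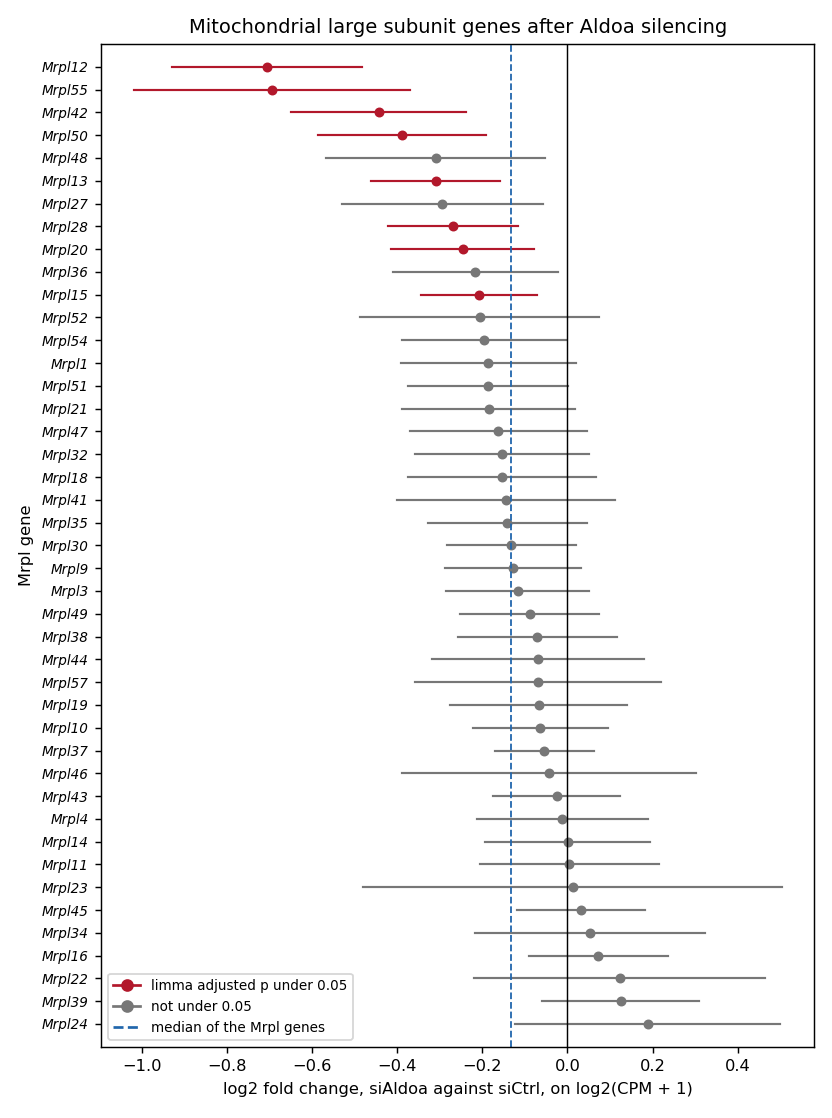
Log2 fold change of each of the 43 Mrpl genes (points, siAldoa against siCtrl on the log2(CPM + 1) scale) with its 95% interval (lines) from limma, ordered by size; the dashed line is the median of the 43. Red points had an adjusted p under 0.05; 34 of the 43 points lie left of 0 and the 8 red ones reach from -0.21 to -0.71.

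To show the genomic context of the largest drops, the 250 bases upstream of the RefSeq start of the first 4 genes are given 5′ to 3′ on the gene's strand (GRCm38.p6). Capitals mark matches, on either strand, to CCAAT (bound by NFY) and GGGCGG (the SP1 box), which were among 6 motifs searched; the others were CACGTG (E-box), the palindromic NRF1 motif, CCGGAAG (ETS factors such as GABPA) and AAGATGG (YY1 core). The stretches are chr11:120484387-120484636 on the plus strand for Mrpl12, chr11:59202236-59202485 on the plus strand for Mrpl55, chr10:95501950-95502199 on the minus strand for Mrpl42 and chr4:49521084-49521333 on the minus strand for Mrpl50.
Mrpl12: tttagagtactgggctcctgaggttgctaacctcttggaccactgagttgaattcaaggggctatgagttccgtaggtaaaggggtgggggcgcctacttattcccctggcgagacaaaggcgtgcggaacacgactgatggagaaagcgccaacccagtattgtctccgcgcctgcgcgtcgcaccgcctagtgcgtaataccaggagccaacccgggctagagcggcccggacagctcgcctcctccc
Mrpl55: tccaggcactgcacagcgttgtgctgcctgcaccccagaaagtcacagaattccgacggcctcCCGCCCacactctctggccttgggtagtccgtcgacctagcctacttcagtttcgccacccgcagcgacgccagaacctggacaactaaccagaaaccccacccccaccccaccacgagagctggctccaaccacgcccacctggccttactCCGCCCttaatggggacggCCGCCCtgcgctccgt
Mrpl42: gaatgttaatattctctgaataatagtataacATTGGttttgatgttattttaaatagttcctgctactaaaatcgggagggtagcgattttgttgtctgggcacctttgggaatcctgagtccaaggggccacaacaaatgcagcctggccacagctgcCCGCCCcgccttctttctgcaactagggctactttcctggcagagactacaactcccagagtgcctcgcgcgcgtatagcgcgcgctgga
Mrpl50: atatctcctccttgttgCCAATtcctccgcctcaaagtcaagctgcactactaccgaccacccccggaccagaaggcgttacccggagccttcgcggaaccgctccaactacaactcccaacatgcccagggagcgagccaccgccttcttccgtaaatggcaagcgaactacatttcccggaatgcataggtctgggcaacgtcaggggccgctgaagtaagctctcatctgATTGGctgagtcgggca

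The upstream sequence of Mrpl12 held none of the 6 motifs, and that of Mrpl55 held GGGCGG 3 times, on the opposite strand, at 187, 35 and 16 bases before the start. Mrpl42 held 1 SP1 box at 90 and 1 CCAAT box at 218 bases before the start, and Mrpl50 held CCAAT boxes at 17 and 233 bases. A match is a description of the letters and not of binding. Over windows that also take in 50 bases after the start, a promoter was found for 37 Mrpl genes by symbol, 6 of the 8 called genes among them. An Mrpl gene was counted if any of its promoters matched (40 promoters in all), while the shares beside it are of single promoters. With 6 called genes among the 37, the counts of called genes per motif are too small to read. CCGGAAG was in 11 of the 37 genes (29.7%, against 8.86% of all 32851 promoters and 15.2% of those of measured genes), none of them called. The NRF1 motif was in 3 (8.11%, against 0.971% and 1.78%), the uncalled Mrpl9, Mrpl32 and Mrpl39. AAGATGG was in 7 (18.9%, against 6.34% and 6.73%), among them Mrpl42, whose match lies after the start. CACGTG was in 3 (8.11%, against 7.15% and 9.25%), including Mrpl20, while GGGCGG was in 14 (37.8%, against 35.7% and 56.7%) and CCAAT in 12 (32.4%, against 37.4% and 37.8%).

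Mrpl12 encodes the protein of the flexible stalk to which translation factors dock. It lies on chr11:120484613-120489065 (GRCm38, plus strand). Its level was 47.7, 39.4 and 51.6 CPM in siCtrl 1, 2 and 3 and 28.3, 24.9 and 30.4 CPM in siAldoa 1, 2 and 3. The groups did not overlap, and library 2 was the lowest in both. The log2 fold change was -0.71 ± 0.108 (SE; adjusted p = 3.14e-05, limma), at 60.3% of the siCtrl mean. Same-numbered libraries differed by -0.73, -0.64 and -0.75 on the log2 scale.

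Mrpl55 encodes a small protein of the central protuberance, the ridge of the large subunit that faces the small one. It lies on the same chromosome, chr11:59202486-59206134 (plus strand), and was among the genes with fewest reads. Its level was 18.1, 15.6 and 17.7 CPM in siCtrl and 11.1, 9.09 and 10.5 CPM in siAldoa. The lowest siCtrl library was well above the highest of siAldoa. With 34 to 67 reads per library the log2 fold change was -0.70 ± 0.157 (SE; adjusted p = 0.00219, limma), so its 95% interval, from -1.02 to -0.37, was wider than that of Mrpl12, from -0.93 to -0.48. The intervals of the 2 genes overlapped over most of their length, and Mrpl55 kept 59.6% of its siCtrl mean.

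Mrpl42 and Mrpl50 encode proteins that the bacterial ribosome lacks. Mrpl42 (chr10:95480805-95501940, minus strand) was 38.9, 42.9 and 38.9 CPM in siCtrl and 26.5, 30.7 and 30.9 CPM in siAldoa, without overlap. Its log2 fold change was -0.44 ± 0.0989 (SE; adjusted p = 0.00196, limma). Mrpl50 (chr4:49512596-49521093, minus strand) was 72.0, 70.9 and 54.5 CPM in siCtrl and 54.8, 48.4 and 46.1 CPM in siAldoa. Here the groups touched, since siCtrl 3 fell just under siAldoa 1. The log2 fold change of Mrpl50 was -0.39 ± 0.0953 (SE; adjusted p = 0.00443, limma).

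The remaining 4 called genes encode proteins with a bacterial counterpart and had smaller drops. Mrpl13 (chr15:55534094-55557748, minus strand) was 74.2, 89.7 and 86.0 CPM in siCtrl and 67.5, 65.5 and 67.6 CPM in siAldoa, a log2 fold change of -0.31 ± 0.0732 (SE; adjusted p = 0.00329, limma). Mrpl28 (chr17:26123500-26126613, plus strand), the Mrpl gene with the highest level per kilobase of exons, was 73.4, 72.8 and 77.0 CPM in siCtrl and 61.3, 56.7 and 67.0 CPM in siAldoa, a log2 fold change of -0.27 ± 0.0737 (SE; adjusted p = 0.0103, limma). Neither gene overlapped between the groups. Mrpl20 (chr4:155802878-155809975, plus strand) was 61.1, 58.3 and 69.3 CPM in siCtrl and 49.4, 52.9 and 56.0 CPM in siAldoa, a log2 fold change of -0.25 ± 0.0813 (SE; adjusted p = 0.0331, limma). Mrpl15 (chr1:4773206-4785739, minus strand) was 109, 114 and 110 CPM in siCtrl and 101, 85.8 and 102 CPM in siAldoa, a log2 fold change of -0.21 ± 0.0659 (SE; adjusted p = 0.0261, limma). Groups of both genes were separate, but for Mrpl15 siAldoa 2 stood apart from the other two. Of 22 other settings, 20 called Mrpl12, 19 each called Mrpl55, Mrpl42 and Mrpl13, 15 called Mrpl28, 14 Mrpl50, 11 Mrpl20 and 10 Mrpl15.

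**Figure D2:**
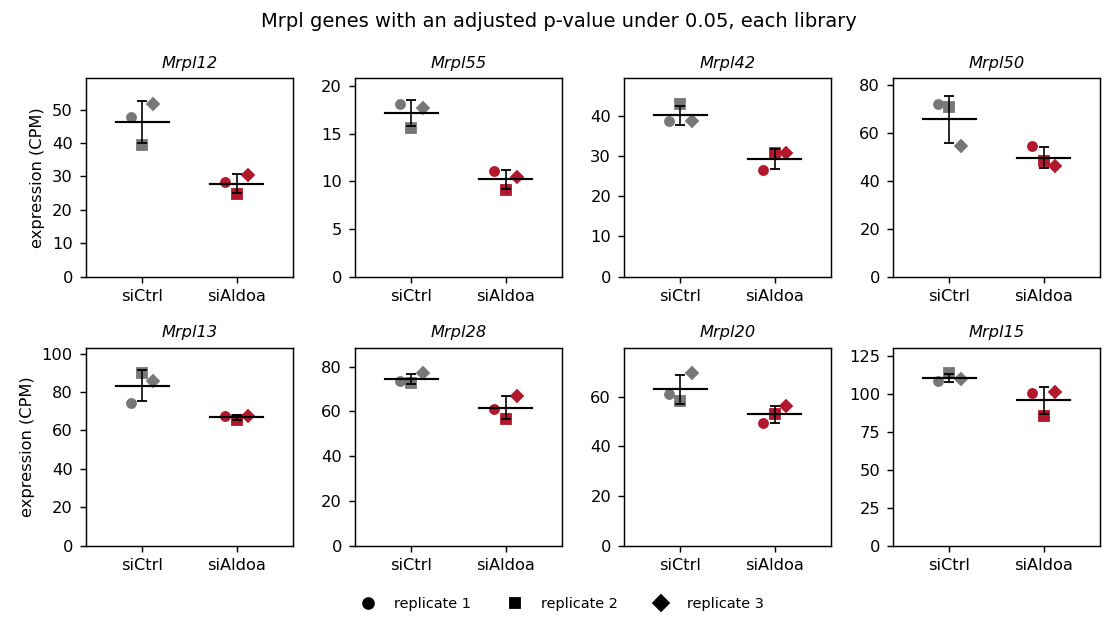
Expression (CPM, axes from 0) of the 8 called Mrpl genes in each library; symbols mark the replicate number, horizontal bars the group mean and error bars 1 SD (n = 3 per group). The groups are separate in 7 genes and touch in Mrpl50.

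Of the 35 Mrpl genes that were not called, 4 had an unadjusted p under 0.05: Mrpl27 (log2 fold change -0.29, adjusted p = 0.0729), Mrpl48 (-0.31, adjusted p = 0.0845), Mrpl36 (-0.22, adjusted p = 0.113) and Mrpl54 (-0.20, adjusted p = 0.155; all limma). Each was lower in every siAldoa library than in every siCtrl library and passed under none of the 22 other settings. Mrpl21 and Mrpl47 were separated in the same way. These 6 genes are 17.1% of the 35, the same share as over all genes (17.1%). Mrpl27, Mrpl36 and Mrpl47 encode proteins with a bacterial counterpart. For 33 of the 35 the 95% interval ended above -0.5, so a drop of the size of Mrpl12 lay outside it, and for 31 it included 0. The 2 intervals that reached -0.5 were those of Mrpl48 (from -0.57 to -0.05) and Mrpl27 (from -0.53 to -0.06). Mrpl24, at the exit of the peptide tunnel, had the most positive value: it was 13.2, 13.4 and 11.9 CPM in siCtrl and 14.3, 15.2 and 14.7 CPM in siAldoa. The groups did not overlap, yet the log2 fold change of 0.19 ± 0.150 did not pass (SE; adjusted p = 0.438, limma). Mrpl23, with 15 to 32 reads per library, had a log2 fold change of 0.01. Its interval, from -0.48 to 0.50, did not exclude changes within that range in either direction. At the other end Mrpl37, with 405 to 435 reads, had -0.05 and an interval from -0.17 to 0.06. Mrpl1 and Mrpl22, whose promoters the study considered for its reporters, had log2 fold changes of -0.19 (adjusted p = 0.213) and 0.12 (adjusted p = 0.679, both limma).

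The loss in summed level was spread beyond Mrpl12 and Mrpl55. The summed level of the 43 genes was 1940, 1944 and 1950 CPM in siCtrl and 1748, 1719 and 1809 CPM in siAldoa. All siAldoa sums were lower, and the mean fell from 1945 ± 4.65 to 1758 ± 45.8 CPM (SD, n = 3), to 90.4% of control. Mrpl12 and Mrpl55 accounted for 13.6% of the difference in CPM, all 8 called genes for 57.01% and the other 35 for 43.0%. The 8 genes include Mrpl12 and Mrpl55 and were called on these same values, so their share is a description. In CPM the largest single contributions were those of Mrpl12 (9.85%), Mrpl13 (8.84%), Mrpl50 (8.61%) and Mrpl15 (7.92%), whereas Mrpl55 contributed 3.71%. Without Mrpl12 and Mrpl55 the median log2 fold change was -0.13, and without all 8 called genes it was -0.07, with 26 of 35 below 0; the last value leaves out genes by their own result and is given as a description.

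Fold changes showed little order along expression level. Over the 43 genes the correlation between the mean CPM per kilobase of exons and the log2 fold change was -0.022 (Spearman) and -0.044 (Pearson), across genes that share the same 6 libraries. Leaving out Mrpl12 and Mrpl55 gave -0.0082 and -0.024. With mean CPM as the level, which also rises with gene length, the values were -0.077 and -0.040 over the 43 genes and -0.17 and -0.24 without Mrpl12 and Mrpl55. The 15 genes with the lowest level per kilobase held 3 of the called genes (Mrpl42, Mrpl13 and Mrpl15). The next 14 held 2 (Mrpl55 and Mrpl12) and the top 14 held 3 (Mrpl50, Mrpl20 and Mrpl28). The median log2 fold changes of these sets were -0.15, -0.10 and -0.12. The sets depend on the measure of level, since the length takes in all annotated exons of a gene. By mean CPM Mrpl15 and Mrpl13, with 8487 and 7936 exon bases, ranked 2 and 3 of the 43. Per kilobase, Mrpl12 ranked 15 and Mrpl55 ranked 25 from the top, at 24.2 and 13.3 CPM per kilobase, while Mrpl28 led with 49.3 and Mrpl23 was last with 1.35. The standard error of the fold change fell with mean CPM (Spearman correlation -0.94). This order is largely built in, by read counting and by a fit in which the variance could follow the mean. The median standard error over the genes, 0.0970, was close to the 0.0988 that read counting alone gives. The 3 called genes with the smallest drops, Mrpl28, Mrpl20 and Mrpl15, had at least 183 reads in every library.

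**Figure D3:**
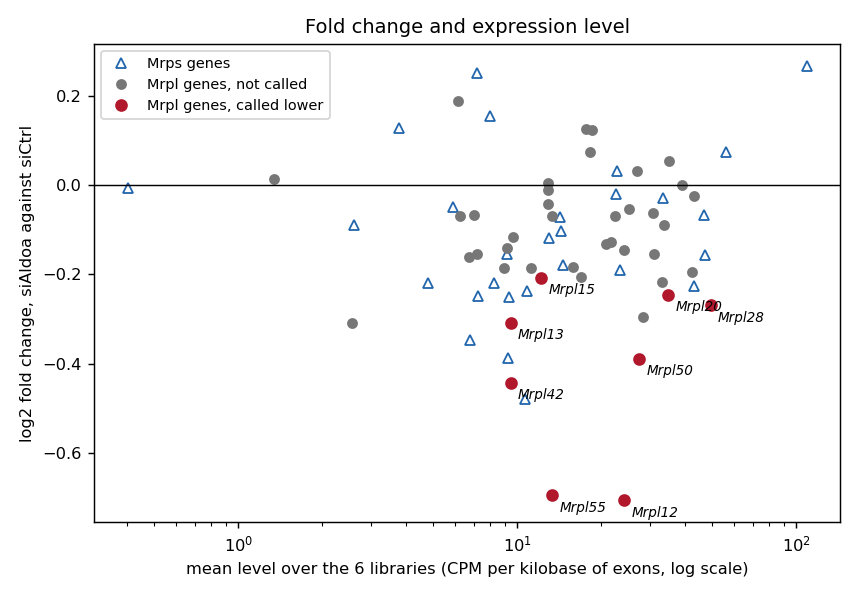
Log2 fold change (siAldoa against siCtrl) of each Mrpl gene (circles, called genes in red) and each Mrps gene (triangles) against its mean level over the 6 libraries in CPM per kilobase of exons (log axis). The red points spread from 9.45 to 49.3 CPM per kilobase. The Mrpl genes reach down to 1.35, and none of those below 9.45 was called.

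By place in the ribosome, called genes were found in the stalk and in the central protuberance, but in neither group were they more than 1. Of the stalk and its base, Mrpl12 was called while Mrpl10, which anchors it, had a log2 fold change of -0.06, Mrpl11 had 0.00 and Mrpl54 had -0.20. In the central protuberance all 6 measured genes had a negative value, with a median of -0.22: Mrpl55 was called, and Mrpl48, Mrpl27, Mrpl18, Mrpl38 and Mrpl46 had -0.31, -0.29, -0.15, -0.07 and -0.04 without passing. Their medians by replicate number were -0.37, -0.39 and 0.01, so replicate 3 did not show the shift, and the values of Mrpl38 and Mrpl46 turned positive when some libraries were left out. None of the 6 genes at the tunnel exit (Mrpl22, Mrpl23, Mrpl24, Mrpl32, Mrpl45 and Mrpl47; median 0.02) and none of the 3 around the peptidyl transferase centre, where the peptide bond is formed (Mrpl3, Mrpl4 and Mrpl16; median -0.01), passed the test. Of the 27 genes with a bacterial counterpart 6 were called (22.2%, median -0.14), and of the 16 specific to mitochondria 2 were called (12.5%, median -0.08), beside 10.0% of all genes called lower. Differences between these groups were not tested.

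**Figure D4:**
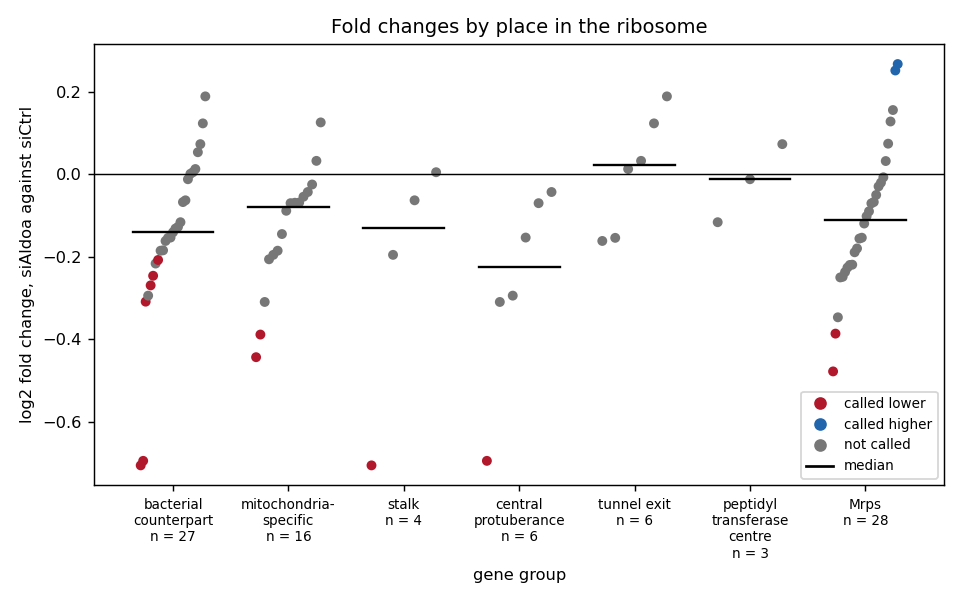
Log2 fold change (siAldoa against siCtrl) of the Mrpl genes by place in the ribosome and by descent, and of the Mrps genes; a gene can stand in more than 1 group. Bars are medians and colours mark genes with an adjusted p under 0.05 in limma; all 6 genes of the central protuberance lie below 0, and the 6 of the tunnel exit lie on both sides.

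Near-identical copies limit how firmly some values belong to the gene named. A stretch of at least 300 bases at 90% identity or more was shared with another measured gene by 14 Mrpl genes, overlapping genes and repeated sequence included. Mrpl12 matches the processed pseudogene Gm15770 at 93.5% over 597 bases, and Mrpl42 matches the processed pseudogene Gm6419 at 96.3% over 429 bases, so reads could be split between them. Gm15770 was 36.7, 35.6 and 36.5 CPM in siCtrl and 26.2, 23.0 and 25.7 CPM in siAldoa. Like Mrpl12 it was lower in all 3 siAldoa libraries, with a log2 fold change of -0.52 ± 0.102 (SE; adjusted p = 0.000512, limma). Adding the reads of both, the sum went from 82.5 ± 6.77 to 52.8 ± 4.36 CPM (SD, n = 3), 64.0% of control; an exact permutation test gave p = 0.10, the smallest that 3 against 3 allows. Gm6419 had a log2 fold change of -0.33 ± 0.114 (SE; adjusted p = 0.0429, limma) that was lost under 14 of the 22 other settings, DESeq2 among them, and its sum with Mrpl42 went from 68.7 ± 1.19 to 51.7 ± 2.63 CPM (SD, n = 3), 75.4% of control. Mrpl48 has the copy Mrpl48-ps, identical at 98.1% over 636 bases, with a log2 fold change of -0.36 that did not pass (adjusted p = 0.0517, limma), although 6 of the 22 other settings called it. Another stretch of Mrpl48, of 525 bases, matches D10Wsu102e at 93.1%, and stretches of Mrpl48 match 68 annotated genes in all. D10Wsu102e, with the most reads of the measured ones, went from 185 ± 3.16 to 140.4 ± 7.37 CPM (SD, n = 3; log2 fold change -0.40, adjusted p = 3.78e-06, limma).

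**Figure D5:**
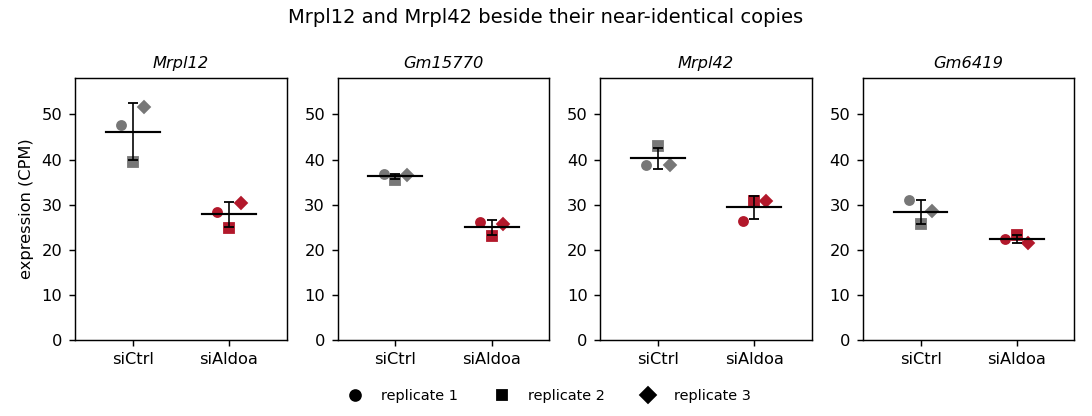
Expression (CPM, axes from 0) of Mrpl12 and Mrpl42 and of the processed pseudogenes that match them, in each library; horizontal bars are group means and error bars 1 SD (n = 3 per group). In all 4 panels each siAldoa library is below each siCtrl library.

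A measured gene lay within 1000 bases of 28 Mrpl genes, and 14 Mrpl genes shared exon bases with such a neighbour, in all cases on the opposite strand. Of the 30 neighbours 4 were called lower (13.3%, against 10.0% of all genes) and 3 higher (10.0%, against 10.4%), shares near those of all genes. Hgs, which encodes a sorting protein of endosomes and lies 633 bases from Mrpl12 on the same strand, rose by 0.39 ± 0.0714 on the log2 scale (SE; adjusted p = 0.000244, limma). The transcript 2610507I01Rik, 100 bases from Mrpl55, had a log2 fold change of -0.30 (adjusted p = 0.450, limma), from a mean of 3.61 CPM. Mtbp shares 330 exon bases with Mrpl13 on the opposite strand and was called lower as well in limma, though not with DESeq2 (log2 fold change -0.26, adjusted p = 0.0127, limma); whether counting used strand is not given in the sources used here, so reads in the shared stretch are uncertain. Zfp189 (0.35, adjusted p = 0.328), 82 bases from Mrpl50, and Tmem8 (-0.06, adjusted p = 0.887, both limma), 245 bases from Mrpl28, did not pass. Leaving out the 14 Mrpl genes with shared exon bases left a median of -0.13 and 7 genes called lower among 29 (24.1%, against 10.0% of all genes).

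Among the Mrps genes calls went in both directions, and the median was near that of the Mrpl genes. The 28 Mrps genes had a median log2 fold change of -0.11, with 22 below 0 (78.6%), 2 called lower (7.14%, against 10.0% of all genes) and 2 called higher (10.4% of all genes). Mrps27 went from 26.2 ± 1.26 to 18.5 ± 1.79 CPM and Mrps26 from 45.6 ± 1.05 to 34.8 ± 4.22 CPM (SD, n = 3; log2 fold changes -0.48 and -0.39, adjusted p = 0.00605 and 0.00448, limma). Mrps6 rose from 151 ± 5.96 to 182 ± 8.16 CPM and Mrps5 from 43.1 ± 1.97 to 51.5 ± 1.84 CPM (SD, n = 3; 0.27 and 0.25, adjusted p = 0.000525 and 0.0300, limma). The summed Mrps level was 95.7% of control, against 90.4% for Mrpl. The difference between the sets was not tested.

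Among the 47 measured factors that transcribe the mitochondrial genome, build its ribosome or run its translation, 3 were called lower (6.38%, against 10.0% of all genes) and 1 higher (2.13%, against 10.4%), with a median log2 fold change of -0.10; both shares are below those of all genes. Polrmt, the mitochondrial RNA polymerase, rose: it was 34.0, 36.9 and 33.6 CPM in siCtrl and 54.5, 43.3 and 52.4 CPM in siAldoa (log2 fold change 0.51 ± 0.0954 SE, adjusted p = 0.000384, limma). All siAldoa libraries were above all of siCtrl. Tfam, which packages mitochondrial DNA and activates its transcription, fell from 84.6 ± 7.55 to 69.5 ± 3.11 CPM (SD, n = 3; log2 fold change -0.28, adjusted p = 0.00727, limma). Gfm1, the elongation factor that moves the ribosome along the mRNA, and Pnpt1, an RNA-degrading enzyme, had -0.21 (adjusted p = 0.00603) and -0.26 (adjusted p = 0.0243, both limma). The lowest value of the list was that of Ybey, an RNA-cleaving enzyme, which was 14.2, 6.57 and 6.35 CPM in siCtrl and 5.67, 4.54 and 4.97 CPM in siAldoa. The siCtrl 1 value stood far above the rest; without that library the Ybey log2 fold change was -0.30. With all libraries the value of -0.65 ± 0.252 (SE) did not pass in limma (adjusted p = 0.0746), while edgeR called it (adjusted p = 0.0261). With DESeq2 Gfm1 and Pnpt1 were no longer called. Polrmt and Tfam, both of which act in mitochondrial transcription, went in opposite directions.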

How the data were processed

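Expression was measured by RNA-seq of polyadenylated RNA from 6 libraries of NIH/3T3 cells, 3 siCtrl and 3 siAldoa, 48 h after transfection; groups and replicate numbers followed the sample labels. Per the study's methods and the submitters' processing notes, reads were reduced to equal numbers, aligned to mm10 with Bowtie2 2.2.7 and counted over genes in R, and genes under 12 reads were removed; 1834 genes of the table nevertheless had fewer than 12 reads in all. The gene annotation, the use of strand and the treatment of reads with several matches are not given in the sources used here. The deposited values are CPM that the authors computed with scaled library sizes. Dividing by the value of 1 read gave whole reads for 100% of values (tolerance 0.01), and library totals of 3692341 to 3771129 reads, so counting alone limits the precision of genes with few reads.

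The Mrpl genes and all lists were chosen with earlier results of these data known. The main test, two-sided, was limma 3.58.1 (R 4.3.3) on log2(CPM + 1), in which the variance could follow the mean. P-values were adjusted over 18001 genes (Benjamini-Hochberg, threshold 0.05); fold changes are on this scale, which understates changes of low genes. It called 1809 genes lower and 1867 higher; edgeR 4.0.16 (quasi-likelihood, recovered reads) called 1866 and 1920, and DESeq2 1.42.0 called 1117 and 1066. The NRF1 motif is the palindromic core of its site, read on both strands. Called Mrpl genes, the 4 uncalled with the smallest p, the 3 with the most and the 3 with the fewest CPM, the most positive 1, members of structural groups, called Mrps genes and neighbours of called genes are named; Gm15770, Gm6419, Mrpl48-ps, D10Wsu102e, Ybey, Psma2, Pnpla7, Wdfy1, Ict1, Gadd45gip1, Mrpl23-ps1, Polrmt, Tfam, Gfm1, Pnpt1, Mrpl21 and the genes named with a motif were named after their values were seen. Replicate 1 and replicate 2 differed by little more than sampling noise and were kept as 2 samples; p-values measure the spread between these libraries, which may be partly technical.

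Positions, exon lengths and neighbours (within 1000 bases) came from GENCODE M21 (GRCm38), where all 43 Mrpl genes were found by identifier, and promoters from RefSeq (GRCm38.p6), where 37 were found by symbol. Copies were sought with blastn 2.17.0 (at least 90% identity over at least 300 bases). Mrpl2, Mrpl17, Mrpl33, Mrpl40 and Mrpl53 were not analysed here. Of 51 listed factor names 4 had no match: Gtpbp5, Gtpbp7, Ddx28 and Mrm2. Gtpbp5 and Gtpbp7 are other names of Mtg2 and Mtg1, which were analysed. Other settings were other pseudocounts (0.1 and 0.5), a filter on low genes, other scalings, no trend, edgeR, DESeq2, a replicate block and leaving out libraries.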

Additional observations from a re-analysis of the deposited data

How the results depend on the processing

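The 8 Mrpl calls were the same genes with edgeR, with either other pseudocount, with a filter on low genes and with DESeq2 size factors or quantile scaling. TMM scaling, counted among the 22 settings, returned the main fit (1809 lower and 1867 higher over all genes) and is no separate check. Under the 22 settings 0 Mrpl genes were called higher. DESeq2 called 5 lower (Mrpl12, Mrpl13, Mrpl42, Mrpl50 and Mrpl55), and the limma fit without a mean-variance trend 3 (Mrpl12, Mrpl42 and Mrpl55). An adjusted p under 0.01 in the main fit left 5, a count without a share of all genes beside it. Leaving out replicates gave 0 to 7 Mrpl genes lower and a median log2 fold change of -0.16 to -0.11, and plain library totals gave -0.11, with 6 genes lower. Over all genes DESeq2 called 1117 lower and 1066 higher, no trend 616 and 824, and leaving out replicates or single libraries 520 to 1371 and 494 to 1464. EdgeR called 10.4% of all genes lower, the filter 14.4% of the 13500 genes it kept and quantile scaling 1683 genes. Plain library totals called 2054 genes higher. Mrps genes lower numbered 1 without a trend and 0 to 1 without a whole replicate, and Mrps genes higher 1 with DESeq2, 0 without a trend, 1 with replicates 1 and 2 averaged (chosen after seeing the data) and 0 to 2 when libraries were left out. Factors called lower were 1 with DESeq2, 0 without a trend, 5 with edgeR, with the filter or with quantile scaling and 0 to 3 when libraries were left out; factors called higher were 2 with plain totals and 0 to 2 when libraries were left out. The cause of these differences was not tested. AAGATGG was in a promoter of 4 Mrpl genes when the bases after the start were left out. Averaging replicates 1 and 2 left 6 Mrpl genes lower. For 59 single genes, 1127 values over these settings kept their direction and side of the threshold, 121 lost the call, 9 gained it (Mrpl48-ps and Ybey) and 40 changed sign, all of them in 10 genes that were not called. The log2 fold change of Mrpl23 was -0.041 with DESeq2, -0.043 with edgeR, -0.038 with edgeR and the block, -0.015 with quantile scaling and -0.095 with replicates 1 and 2 averaged, where Mrpl46 was 0.092 and Tmem8 0.027; Mrpl11 was -0.030 with quantile scaling and Mrpl4 was 0.010 with plain totals. When libraries were left out the values ran from -0.30 to 0.21 for Mrpl23, from -0.022 to 0.30 for Mrpl22, from -0.091 to 0.077 for Mrpl11, from -0.21 to 0.064 for Mrpl38, from -0.29 to 0.20 for Mrpl46, from -0.018 to 0.073 for Mrpl45, from -0.10 to 0.037 for Mrpl4, from -0.17 to 0.10 for Ict1, from -0.23 to 0.097 for Mrps11 and from -0.23 to 0.093 for Tmem8. Some Mrpl genes that were not among the 59 changed sign as well when libraries were left out. Their values ran from -0.095 to 0.058 for Mrpl14, from -0.14 to 0.020 for Mrpl19 and from -0.038 to 0.16 for Mrpl34. For Mrpl43 they ran from -0.059 to 0.022 and for Mrpl57 from -0.19 to 0.036. Calls were lost under 14 settings for Gm6419, 10 each for Pnpt1 and Mrps5, 7 for Mtbp, 6 for Tfam and 5 for Gfm1.

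The replicate numbers paired the libraries only in part: deviations of same-numbered libraries correlated by 0.040, 0.040 and 0.207 over 8271 genes. The value for replicate 3 was the highest of all pairs. Replicate 3 of either group correlated negatively with replicates 1 and 2 of the other (-0.154 to -0.079). Deviations were taken from the group mean, so those of the libraries of a group cancel out in each gene. Given the positive value for replicate 3, these negative values follow largely from that centring and are no separate observation on pairing. Among replicates 1 and 2, siAldoa 1 correlated better with siCtrl 2 (0.125) than with siCtrl 1. With the replicate block 7 Mrpl genes were called lower, without Mrpl15 (adjusted p = 0.0600, limma), and edgeR with the block (chosen after seeing the data) called 8; over all genes the block called 1559 lower and 1611 higher. Genes with few reads had wide intervals: with 3 libraries per group and 34 to 67 reads, that of Mrpl55 ran from -1.02 to -0.37. The smallest change that could be called at such a depth was not computed.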

Other observations

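Some genes of the large subunit whose symbols do not follow the Mrpl pattern were examined as well. Ict1, which encodes the peptide-releasing protein of the large subunit also known as Mrpl58, was 32.8 ± 3.23 CPM in siCtrl and 32.1 ± 4.25 CPM in siAldoa (SD, n = 3; log2 fold change -0.03, adjusted p = 0.877, limma). Gadd45gip1, the large subunit gene also known as Mrpl59, was 8.86 ± 1.64 and 7.90 ± 0.614 CPM (log2 fold change -0.14, adjusted p = 0.705, limma). The pseudogene Mrpl23-ps1 was 14.9 ± 3.12 and 11.98 ± 0.199 CPM (log2 fold change -0.28, adjusted p = 0.270, limma), and none of these passed the test.

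Mrpl genes lay on 17 chromosomes, and the 7 on chromosome 11 included both of the largest drops, Mrpl12 and Mrpl55, which are the only called genes there. Mrpl46 shares 173 exon bases with Mrps11 on the opposite strand, and neither passed (log2 fold changes -0.04 and -0.12). Psma2, a proteasome subunit gene 74 bases from Mrpl32, had -0.38 (adjusted p = 0.000334, limma), while Mrpl32 itself had -0.15 and did not pass. Pnpla7, 934 bases from Mrpl41, had -0.43 (adjusted p = 0.00298, limma), and Wdfy1, which shares 126 exon bases with Mrpl44 on the opposite strand, had 0.43 (adjusted p = 0.00147, limma), where Mrpl41 and Mrpl44 had -0.15 and -0.07.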
